A study of Mus musculus with 2 samples.

Results

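The genes described here are 10 intermediate filament genes, Krt7, Krt8, Krt18, Krt19, Vim, Nes, Nefl, Nefm, Nefh and Lmna, found by their symbols among the 17817 genes of the expression table, where each had 1 row. They were measured by RNA sequencing in 2 libraries of mouse embryonic stem cells of 129SV/C57BL/6 background, 1 wild type and 1 Setd2 knockout, both at passages 10 to 12 and given no specific treatment. Setd2 is the histone methyltransferase gene behind trimethylated lysine 36 of H3 in transcribed gene bodies, and the comparison asks how transcript levels differ between cells labelled wild type and knockout for it. The cells had been grown on feeder cells and were then plated on gelatin to remove them. How the knockout line was made, and whether each genotype was 1 clone, the labels do not state. Each genotype had 1 library, so no test was possible and every difference is one between these 2 libraries. The genes were listed as a family by symbol, and the list was selected on, or at least with knowledge of, the folds between these same libraries, so the folds are given as a description.

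Intermediate filaments are rope-like polymers that give cells and nuclei mechanical strength. Keratins are obligate partners, 1 type II chain (Krt7, Krt8) with 1 type I chain (Krt18, Krt19), and Krt8 and Krt18 are the pair typical of simple epithelia and of the outer layer of the early embryo. Vimentin (Vim) forms the filaments of mesenchymal cells and nestin (Nes) joins vimentin in neural and other progenitors. The neurofilament subunits light, medium and heavy (Nefl, Nefm, Nefh) build the filaments of axons, and lamin A/C (Lmna) lines the inner face of the nuclear envelope.

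The RefSeq promoter table held 6 of the 10 genes, Krt7, Krt8, Krt18, Vim, Nes and Lmna. Entries for Krt19, Nefl, Nefm and Nefh were missing. The 250 bases before the annotated start are printed for the keratin partners Krt8 and Krt18, which stood higher in the knockout library by nearly the same factor, and for the partners Vim and Nes, which stood apart in opposite directions. The sequences come from RefSeq (GRCm38.p6), and each was found as an exact match in the NCBIM37 genome (mm9), whose coordinates are given. Krt8 lies at chr15:101834774-101835023 on the minus strand, Krt18 at chr15:101858397-101858646 on the plus strand, Vim at chr2:13495688-13495937 on the plus strand and Nes at chr3:87774765-87775014 on the plus strand. Each ends at the base next to the start of the gene's row in the table. Capitals mark the motifs searched.
Krt8: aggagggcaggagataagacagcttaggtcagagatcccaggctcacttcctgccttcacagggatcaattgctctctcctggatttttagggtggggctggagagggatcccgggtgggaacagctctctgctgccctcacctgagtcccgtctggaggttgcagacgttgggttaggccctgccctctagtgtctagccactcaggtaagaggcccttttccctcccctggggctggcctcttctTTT
Krt18: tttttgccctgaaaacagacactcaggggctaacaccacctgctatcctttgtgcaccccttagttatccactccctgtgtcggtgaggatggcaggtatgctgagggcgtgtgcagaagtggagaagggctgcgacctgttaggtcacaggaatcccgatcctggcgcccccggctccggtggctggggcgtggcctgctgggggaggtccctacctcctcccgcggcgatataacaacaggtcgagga
Vim: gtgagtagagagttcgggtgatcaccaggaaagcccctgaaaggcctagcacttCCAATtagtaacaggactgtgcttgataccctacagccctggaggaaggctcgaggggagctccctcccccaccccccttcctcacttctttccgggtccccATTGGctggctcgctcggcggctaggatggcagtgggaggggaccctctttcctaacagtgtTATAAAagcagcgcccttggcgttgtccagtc
Nes: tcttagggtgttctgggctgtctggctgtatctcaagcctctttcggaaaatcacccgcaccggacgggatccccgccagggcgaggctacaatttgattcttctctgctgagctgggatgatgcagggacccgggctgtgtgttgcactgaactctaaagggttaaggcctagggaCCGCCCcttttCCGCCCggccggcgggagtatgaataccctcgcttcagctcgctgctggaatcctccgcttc

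The motifs were searched on both strands in the full 300-base RefSeq windows, which run 50 bases past the start. They were the TATA box TATAAA, the CCAAT box CCAAT, the GC box GGGCGG, the AP-1 site TGACTCA, the cyclic AMP response element TGACGTCA and the E-box CACGTG. Vim held TATAAA 32 bases before the start and CCAAT or its complement 94 and 196 bases before it. In Krt8, TATAAA and its overlapping complement ran across the annotated start, so only their first bases are in the printed stretch. Of 27025 promoters, 14.2% held the TATA box and 37.9% the CCAAT box. Nes held 2 GC boxes, 73 and 62 bases before the start, and Krt7 held 4, and a GC box was in 35.9% of all promoters. None of the 6 motifs was in the Krt18 window. Lmna, with 2 windows in the table, held a GC box before the start and an AP-1 site past it in the one. The other held a CCAAT box. An AP-1 site was in 5.17% of all promoters. The G and C content of the 250 bases was 58.0% in Krt8, 60.4% in Krt18, 58.4% in Vim, 58.8% in Nes, 66.0% in Krt7 and 56.4% and 52.8% in the windows of Lmna, against a median of 52.0% over all promoters. The number of CG dinucleotides differed more, 3 in Krt8, 8 in Vim, 12 in Krt18, 15 in Nes, 16 in Krt7 and 1 and 4 in the Lmna windows. These matches describe letters and do not show binding.

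Levels are given in CPM, the number of 76-base read equivalents of a gene per 1000000 over all gene rows. The wild-type library held 56129838 read equivalents and the knockout library 52041677. Setd2 itself stood at 452 CPM in wild-type cells and 174 CPM in knockout cells. Summed over its whole length, 38.5% of the wild-type level remained (37.6 to 39.4%), and no value inside a deleted part was read. All 13 measured stem cell markers passed 1 CPM, 11 with a log2 fold below 0 and 2 above it. Of all genes compared, 56.4% had a log2 fold above 0. Of the 13 markers 1 was at least 2-fold lower, against 2.11% of all genes compared. That 1 was Zfp42, at 283 CPM in wild-type cells and 68.1 CPM in knockout cells, and 55% of its windows were shared. Utf1 was at a ratio of 0.583 and Nanog at 1.40, and the core factor gene Pou5f1, chosen after its values were seen, was at 558 and 544 CPM. Shared windows made up 35% of those of Nanog and 15% of those of Pou5f1. The comparison took the 13523 genes whose levels in the libraries averaged 1 CPM or more, and 9 of the 10 intermediate filament genes were among them. Krt7 was below that floor. A gene was called apart when its fold, (knockout + 0.5)/(wild type + 0.5) in CPM, reached 2. Intervals are 95% counting intervals of the CPM ratio without the added 0.5, and cover counting error only.

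Krt19, Nes and Nefm reached 2-fold in favour of knockout cells, 3 of the 9 compared, against 1.76% of all genes. None of the 9, a count of 0, was at least 2-fold lower, against 2.11% of all genes, and in either direction 3.87% of all genes were called. Of the 9 genes 6 had a log2 fold above 0, as had 56.4% of all genes, and 3 had one below 0. Their median log2 fold was 0.68 against 0.05 for all genes compared, and 0.69 with Krt7 included. The keratins, Nes, Nefl and Nefm stood higher in the knockout library, and Nefh, Lmna and Vim stood lower. Without scaling by the library total the split of all genes was 178 higher and 352 lower, against 238 and 285 with it, and every one of the 10 genes kept the sign of its fold.

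**Figure D1:**
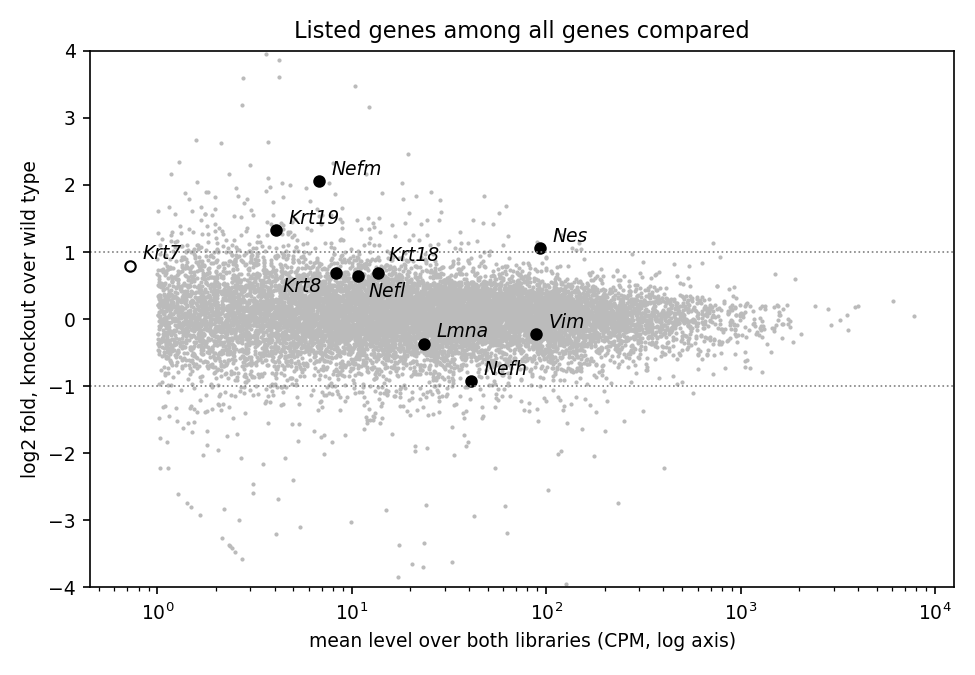
Mean level over both libraries (CPM, log axis) against log2 fold, knockout over wild type, for the 13523 genes compared (grey) and the 10 intermediate filament genes (black; Krt7, below the floor, open). Dotted lines mark 2-fold, 27 genes lie beyond the plotted range of 4 on the log2 scale, and Nefm, Krt19 and Nes lie above the upper line.

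The 4 keratin genes were all higher in the knockout library. Krt8 (gene number 16691, chromosome 15, 101827142 to 101834773, mm9), the type II chain of simple epithelia, was at 6.26 CPM in wild-type cells and 10.4 CPM in knockout cells, 1.66-fold (1.45 to 1.90). Its type I partner Krt18 (16668, chromosome 15, 101858647 to 101862457) was at 10.3 and 16.9 CPM, 1.64-fold (1.48 to 1.82). The intervals of the partners overlapped nearly fully, and neither reached 2-fold. Per kilobase of exon, Krt8 was at 0.470 of the Krt18 level in wild-type cells and 0.475 in knockout cells, so the ratio within the pair was almost the same in both.

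The level of Krt8 is uncertain. Of 20 windows of 76 bases from its exons, 80% had another place in the genome with at most 2 mismatches, and every one of these 16 windows had that place within the Nlrp4e gene on chromosome 7. The Nlrp4e row held 6 read equivalents in the wild-type and 5 in the knockout library. The sources used here do not state how reads with several alignments were counted. The other 9 intermediate filament genes had 0 shared windows, among them Krt18.

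Krt19 (16669, chromosome 11, 100002126 to 100007233), a type I keratin of ducts and of embryonic epithelia, was at 2.12 CPM in wild-type cells and 6.06 CPM in knockout cells. That is 119 and 315 read equivalents, a ratio of 2.86 (2.31 to 3.56), and the whole interval lies above those of Krt8 and Krt18. It ranked 111th from the highest of 13523 folds. Krt7 (110310, chromosome 15, 101242834 to 101258236), a type II keratin of ducts and trophoblast, was at 0.391 and 1.05 CPM. Its 22.0 and 54.5 read equivalents give a ratio of 2.68 with a wide interval (1.62 to 4.64). Summed per kilobase, the 4 keratins were at 12.1 CPM per kb in the wild-type and 21.3 CPM per kb in the knockout library, 1.76-fold.

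**Figure D2:**
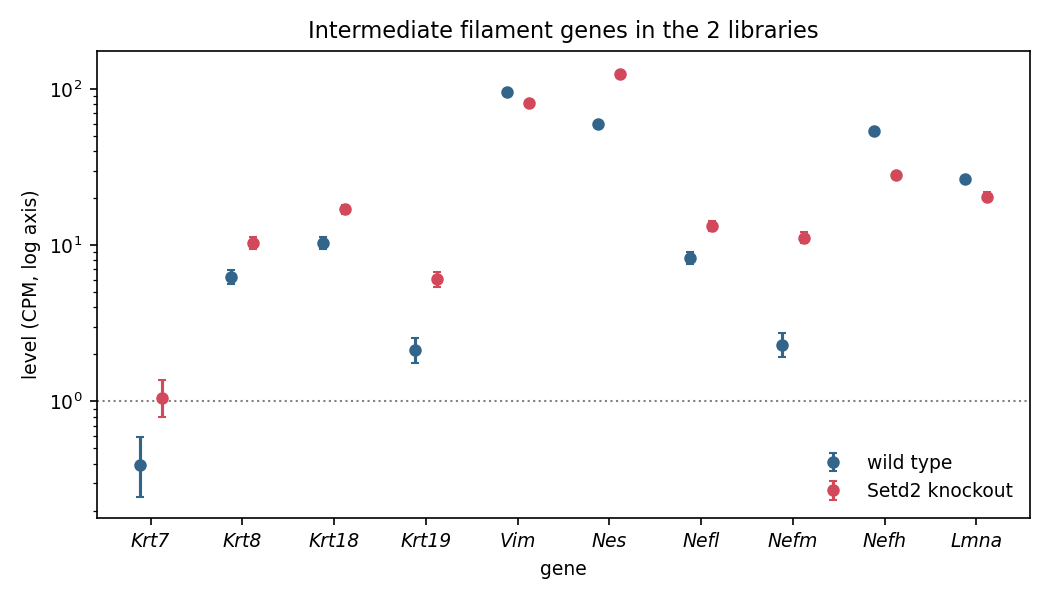
Level of each gene (CPM, log axis) in the wild-type (blue) and Setd2 knockout (red) library, with 95% Poisson counting intervals. The dotted line is 1 CPM, which Krt7 reaches in the knockout library alone, and the red point lies above the blue one for 7 genes and below it for Vim, Nefh and Lmna.

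The other keratins above 1 CPM did not stand higher by more than counting error. The table had 31 keratin rows, and 6 of them passed 1 CPM, these being Krt8, Krt18, Krt19, Krt42, Krt17 and Krt10. Krt17, a stress-responsive type I keratin, was at 2.96 CPM in wild-type cells and 1.91 CPM in knockout cells, 0.644 of the wild-type level (0.496 to 0.830). Krt42 was at 2.81 and 2.25 CPM (ratio 0.800, interval 0.623 to 1.02), and Krt10, a keratin of differentiated epidermis, at 1.22 and 1.42 CPM (ratio 1.17, interval 0.833 to 1.66). The intervals of Krt42 and Krt10 include 1. Krt7, Krt8, Krt18 and Krt19 together held 62.1% of all keratin CPM in wild-type cells and 75.4% in knockout cells, while the other 27 rows summed to 11.6 and 11.2 CPM.

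Vim and Nes stood apart in opposite directions. Vim (22352, chromosome 2, 13495938 to 13504453) was at 95.3 CPM in wild-type cells and 81.7 CPM in knockout cells, a ratio of 0.858 (0.824 to 0.893). Of all genes compared, 54.0% had a fold at least as far from 1. Nes (18008, chromosome 3, 87775015 to 87784373) was at 60.2 and 125.6 CPM, 2.09-fold higher in the knockout library (2.003 to 2.18). Its log2 fold of 1.06 was just past the 2-fold threshold. Scaled by a trimmed mean of log ratios or with no scaling, Nes fell short of 2-fold. Per kilobase Vim was at 4.35 times the Nes level in wild-type cells and at 1.79 times in knockout cells.

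The neurofilament subunits did not stand together. Nefm (18040, chromosome 14, 68737602 to 68743061), the medium subunit, was at 2.31 CPM in wild-type cells and 11.2 CPM in knockout cells. That is 129.9 and 581 read equivalents, 4.83-fold (3.98 to 5.88), and it was the 25th highest of 13523 folds. Nefl (18039, chromosome 14, 68701941 to 68705794), the light subunit on which neurofilament assembly depends, was at 8.31 and 13.3 CPM, 1.60-fold (1.42 to 1.80). Nefh (380684, chromosome 11, 4838759 to 4848067), the heavy subunit with the long phosphorylated tail, was at 53.7 and 28.0 CPM, a ratio of 0.521 (0.489 to 0.555). Its log2 fold of -0.93 was just short of 2-fold, and without scaling by the library total it passed.

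The make-up of neurofilament RNA differed between the libraries. Per kilobase, Nefh made up 81.1% of the summed level of the 3 subunits in wild-type cells and 49.3% in knockout cells. Nefl made up 14.8% and 27.6%, and Nefm 4.10% and 23.1%. Nefm was at 0.277 of the Nefl level in the wild-type and 0.836 of it in the knockout library. The summed level was 16.6 and 14.2 CPM per kb. The annotated end of Nefl, at 68707152, lies past the end of its row, at 68705794. Its exonic length may thus hold bases that the row did not count. If so, its level per kilobase and its share are understated in both libraries. An annotated Nefm transcript on the opposite strand covers 32.8% of the exonic bases of Nefl. The sources used here do not state whether strand was used in counting, so reads of both genes there cannot be told apart. The Nefm row starts at 68737602, away from that stretch, so such reads could add to the Nefl row but not to the Nefm row.

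Lmna (16905, chromosome 3, 88285071 to 88307254) was at 26.5 CPM in wild-type cells and 20.5 CPM in knockout cells, a ratio of 0.773 (0.714 to 0.837). The B-type lamins, which embryonic stem cells express at high level, were closer to 1. Lmnb1 was at 408 and 375 CPM (ratio 0.919, interval 0.902 to 0.937) and Lmnb2 at 70.5 and 63.0 CPM (ratio 0.895, interval 0.854 to 0.937). Both were chosen after their values were seen. Lmnb1 was at 21.7 times the Lmna level per kilobase in wild-type cells and 25.8 times in knockout cells.

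**Figure D3:**
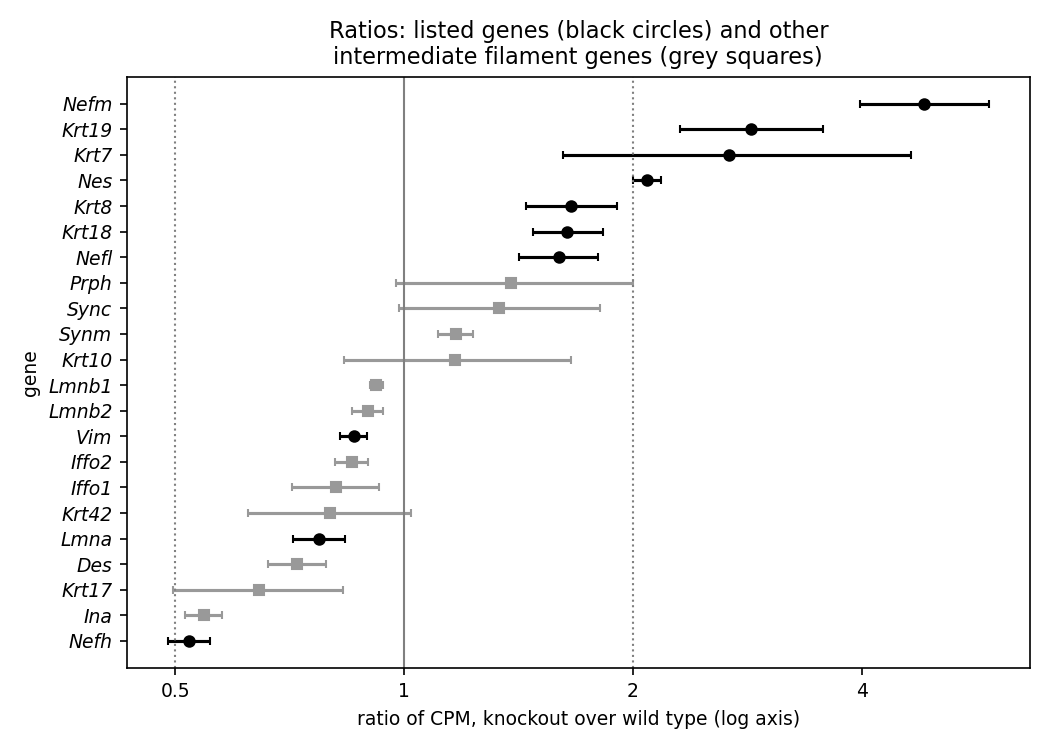
Ratio of CPM, knockout over wild type (log axis), with 95% counting intervals, for the 10 intermediate filament genes (black circles) and the other keratin and intermediate filament genes that passed 1 CPM (grey squares). The dotted lines mark 0.5 and 2; Nefm lies highest at 4.83 and Nefh lowest at 0.521, next to Ina at 0.545.

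Across genes, the order of levels per kilobase of exon differed between the libraries, and only Vim, Nefl and Krt7 kept their ranks. In the wild-type library Vim (40.8 CPM per kb) was followed by Nefh (13.5), Nes (9.38), Krt18 (7.38), Lmna (6.35), Krt8 (3.47), Nefl (2.46), Krt19 (1.14), Nefm (0.680) and Krt7 (0.0555). In the knockout library the order was Vim (35.0 CPM per kb), Nes (19.6), Krt18 (12.1), Nefh (7.01), Krt8 (5.74), Lmna (4.91), Nefl (3.93), Nefm (3.28), Krt19 (3.26) and Krt7 (0.149). Nefh moved from rank 2 to rank 4. Nefm and Krt19 had nearly the same level in the knockout library. With the longest transcript as the length, Lmna passed Krt18 in the wild-type library, and Lmna passed Krt8 and Krt19 passed Nefm in the knockout library. The longest transcript of Nefm, 3680 bases against an exonic length of 3401, holds bases away from its row. By that length the level of Nefm may thus be understated. The annotation runs past the rows of Krt7, Krt19, Nefl and Lmna, among others. Their exonic lengths may hold bases that the rows did not count, so their levels per kilobase may be understated. No spread over samples exists to tell neighbours in these orders apart.

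**Figure D4:**
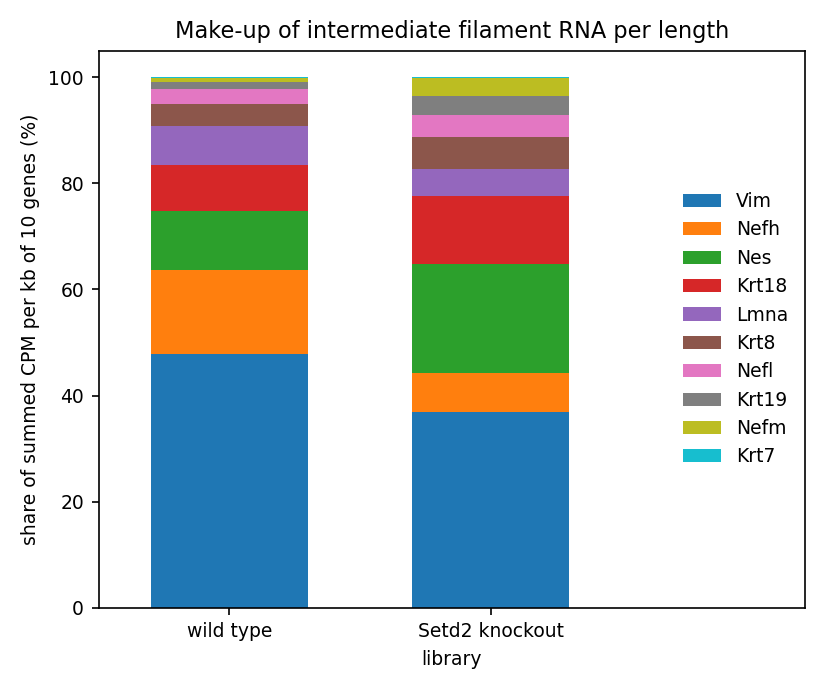
Share of each gene in the summed CPM per kb of the 10 genes (%), stacked, in the wild-type and the Setd2 knockout library. Vim holds 47.9% and 36.9%, Nefh 15.8% and 7.38%, and Nes 11.0% and 20.6%.

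Other intermediate filament genes outside the keratins were read from a list of 12, of which 9 passed 1 CPM. None of these 9, a count of 0, was at least 2-fold apart, against 3.87% of all genes, and the median log2 fold was -0.16. Ina, which encodes alpha-internexin, a partner of the neurofilament subunits, was at 64.0 CPM in wild-type cells and 34.9 CPM in knockout cells, a ratio of 0.545 (0.514 to 0.576) close to that of Nefh. Desmin (Des), the muscle filament gene, was at 22.2 and 16.0 CPM, and peripherin (Prph), of peripheral neurons, at 1.04 and 1.44 CPM, a ratio of 1.38 whose interval reaches down to 0.977.

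Genes whose products anchor filaments were mixed. Of 19 plakin and desmosome genes compared, 1 was at least 2-fold higher and 0 lower, against 1.76% and 2.11% of all genes. Their median log2 fold was 0.02. The desmosomal cadherin gene Dsc2 was at 4.56 CPM in wild-type cells and 13.3 CPM in knockout cells, 2.91-fold (2.51 to 3.37). Perp, a desmosome gene, was 1.73-fold higher (1.64 to 1.83), and the plakin family gene Eppk1 stood lower, at a ratio of 0.549 (0.527 to 0.573). Of 17 genes of lamin processing and the nuclear envelope, 0 were at least 2-fold apart, against 3.87% of all genes. The median was -0.07. Among them Narf was at 1.49 times and the farnesyltransferase subunit gene Fnta, which lies on chromosome 8, at 0.756 times the wild-type level.

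Levels of genes that mark other cells were read beside these. In bulk RNA, fewer cells of a type and less RNA per cell cannot be told apart. Of 8 trophectoderm genes compared, 7 had a log2 fold above 0, against 56.4% of all genes, and 1, Cdx2, was at least 2-fold higher, against 1.76%. Cdx2 was at 0.539 and 2.80 CPM, above 1 CPM in knockout cells alone. The list summed to 65.8 CPM in wild-type cells and 75.5 CPM in knockout cells, with Elf5 at 0 and 4 read equivalents. Tead4, the 1 compared gene of this list below 0, was at 27.8 and 20.9 CPM, a ratio of 0.750 (0.694 to 0.811). It was chosen after its values were seen. Of 17 primitive and visceral endoderm genes, another lineage with Krt8 and Krt18, 9 were at least 2-fold lower and 0 higher. The shares over all genes were 2.11% and 1.76%. Of the 17, 4 were above 1 CPM in wild-type cells alone. The list summed to 2628 and 2172 CPM, with Afp listed at 0 in both. Cubn was at 0.0738, Gata6 at 0.159 and Pdgfra at 0.335 of the wild-type level. The list was not uniform, with 15 of the 17 below 0 and 2 above it, against 56.4% of all genes above 0. Fst was at a ratio of 1.27 (0.980 to 1.63), Lamb1 at 1.04 and Lrp2 at 0.975, these chosen after their values were seen. The part of these lineages in the keratin values was not tested.

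Of 13 neural genes compared, which bear on Nes and the neurofilament genes, 1 was at least 2-fold higher and 0 lower. A log2 fold above 0 was found in 7. The shares over all genes were 1.76%, 2.11% and 56.4%. Syt1, a synaptic vesicle gene, was at 0.637 and 2.87 CPM, one of 2 in this list above 1 CPM in knockout cells alone, and Gap43, a gene of growing axons, at 5.33 and 9.24 CPM. The neuronal tubulin gene Tubb3, on chromosome 8, was at 35.6 and 17.6 CPM, and 25% of its windows were shared. Its log2 fold of -0.99 was just short of 2-fold, and it passed under each of the 4 other scalings (-1.10 to -1.03) and with a pseudocount of 0.1 (-1.01). The list summed to 248 and 264 CPM, with Dcx at 0 and 3 read equivalents. The fibroblast list, which stands for feeder cells and bears on Vim and Lmna, had 15 of 22 genes below 0 and a median of -0.25. Of the 22, 2 were at least 2-fold lower and 0 higher, against 2.11% and 1.76% of all genes. The fibroblast list summed to 559 and 554 CPM, with Prrx1 at 0.453 and Ccl2 at 0.371 of the wild-type level and Lum at 4 and 0 read equivalents. In the other direction, 7 of the 22 had a log2 fold above 0, against 56.4% of all genes. Among these 7 were Fstl1 at 157 and 228 CPM, Pdgfrb at a ratio of 1.59 and Tagln at 1.56, chosen after their values were seen. With a pseudocount of 1 the log2 fold of Prrx1 was -0.91, short of 2-fold. The part of neural or feeder cells in these values was not tested. Of 13 genes of the epithelial and mesenchymal states, 2 were at least 2-fold higher and 1 lower, against 1.76% and 2.11% of all genes. In this list 8 had a log2 fold above 0 and 5 below it, against 56.4% of all genes above 0, and the median was 0.18. The tight junction genes Cldn6 and Cldn7 were 3.25-fold and 2.38-fold higher, and Zeb1, a mesenchymal transcription factor gene, was at a ratio of 0.475. Other members went the other way, with the epithelial genes Cdh1 at 0.942 and Ocln at 0.868 and the mesenchymal genes Zeb2 at 1.40 and Fn1 at 1.11, these 4 chosen after their values were seen.

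Genes beside the intermediate filament genes were also read. Within 250 kb of any of the 10 genes lay 69 other genes that passed 1 CPM. Of these 0 were at least 2-fold higher, against 1.76% of all genes, and 5 were at least 2-fold lower, against 2.11% of all genes. Their median log2 fold was -0.11. Krt8 and Krt18 are adjacent rows 23.9 kb apart. Beyond Krt18 the next row, Tenc1, was at 26.9 and 29.2 CPM (ratio 1.08), and the row on the far side of Krt8, Krt78, was below 1 CPM. Nefl and Nefm are adjacent rows 31.8 kb apart, and the next row, Dock5, was at 164 CPM in wild-type cells and 71.2 CPM in knockout cells, a ratio of 0.433 (0.417 to 0.450). The rows next to Nefh, Thoc5 and Ap1b1, were at ratios of 1.01 and 1.15, those next to Nes, Crabp2 and Bcan, at 1.45 and 0.946, those next to Vim, Trdmt1 and St8sia6, at 0.934 and 1.21, and those next to Lmna, Sema4a and Mex3a, at 0.858 and 1.02. The rows next to Krt7 (Krt80 and Krt83) and Krt19 (Krt13 and Krt9) were below 1 CPM in both. The 5 lower neighbours were Dock5, Cubn near Vim, Gm11598 near Krt19, and Gas2l1 and Ewsr1 near Nefh, the last 3 chosen after their values were seen.

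**Figure D5:**
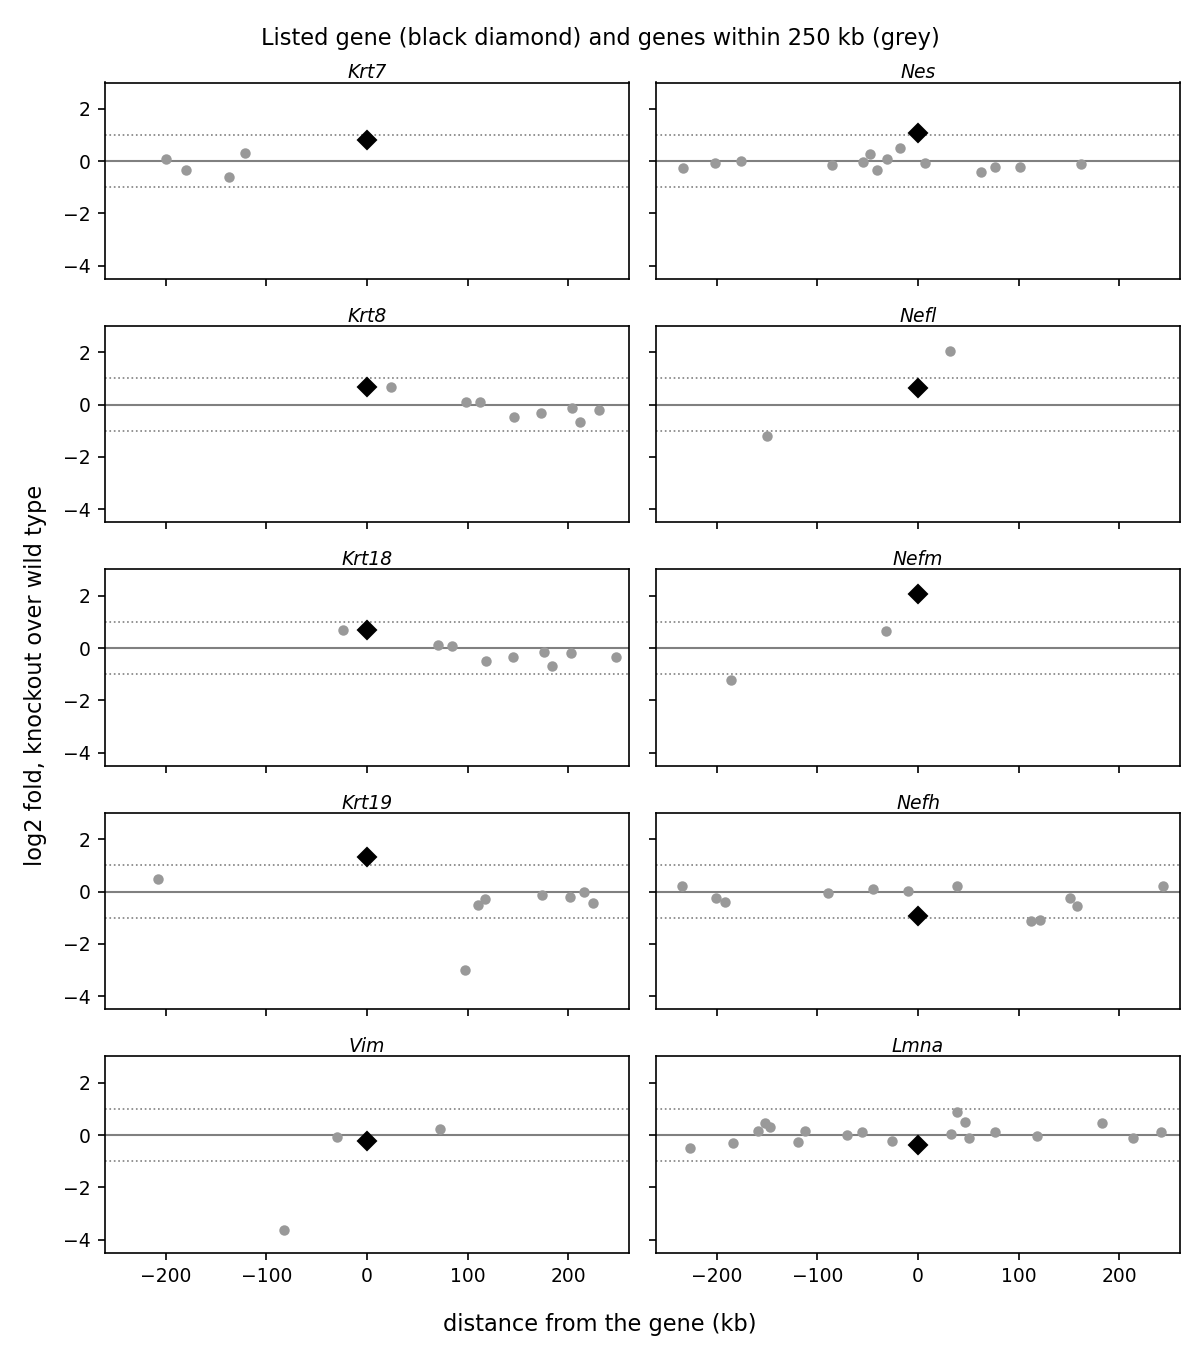
Log2 fold, knockout over wild type, of each intermediate filament gene (black diamond) and of the genes within 250 kb that passed 1 CPM (grey), against the distance from the gene (kb). Dotted lines mark 2-fold; the one grey point above the upper line is Nefm in the panel of Nefl.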

How the data were processed

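Total RNA of 1 wild-type and 1 Setd2 knockout library was sequenced. The tools were CASAVA (version 1.6.0) and TopHat (version 1.0.13) with the mm9 build, per the submitters' processing notes, which state no role. The deposited table has 17827 rows. Its values are labelled RPKM, but the deposited log2 values were read as log2(x + 1), where 76 sequenced bases on a gene make x larger by 1 (a read equivalent), unscaled by depth or length. For x between 0 and 200, 85.9% (wild type) and 85.7% (knockout) of values were whole bases within 0.05 of a base. The authors' step behind these values was not given in the sources used.

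Read equivalents were recovered from the log2 values and scaled to CPM by the total over all rows. 1 CPM is 56.1 read equivalents in the wild-type and 52.0 in the knockout library. Where a symbol had more than 1 row, the row with the higher mean was kept. Ratios have exact conditional binomial 95% intervals on rounded read equivalents, which cover counting error only, since no molecular identifiers separate molecules from copies. Exonic lengths came from GENCODE on NCBIM37, the mm9 assembly. Neighbours came from the positions of the deposited gene rows, so a gene without a row could not be one. Windows were aligned with minimap2 2.31. The calculation was tested on simulated counts.

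The 10 genes and the gene lists were chosen with earlier results of these data known. Named were the 10 genes, Setd2, the rows next to them and up to 3 genes of each list with the largest absolute log2 fold at a mean of at least 1 CPM, and markers at or near 0. Alternatives were other pseudocounts, floors, thresholds and scalings, and summed rows.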

Additional observations from a re-analysis of the deposited data

How the results depend on the processing

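No paired analysis was possible because each genotype had 1 library, and for the same reason none could be left out. All 10 genes kept the sign of their log2 fold under pseudocounts of 0.1 and 1, 4 other scalings and summed rows, from 1.88 to 2.22 for Nefm, 0.95 to 1.06 for Nes and -1.04 to -0.92 for Nefh. With no scaling by library total 1 of the genes, Nefh, was at least 2-fold lower and 2, Krt19 and Nefm, were higher. With a floor of 5 CPM Nefm and Nes were left as higher, and 108 of all genes were. At 1.5-fold 6 of the 9 genes were higher and 1 lower, and 1004 and 916 of all genes. At 3-fold Nefm was the 1 higher gene, and 62 and 93 of all genes were higher and lower. Leaving out Krt8 for its shared windows, chosen after seeing the data, kept 3 higher and 0 lower. Over 41 named genes, 258 of 287 recomputed folds moved by less than their counting interval, 29 moved by more and 0 of those called apart changed sign. Counting depth limits Krt7 most, at 22.0 and 54.5 read equivalents.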

Other observations

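Of the 25 keratin rows with a mean below 1 CPM, Krt7 among them, some stood apart by more than counting error and most did not. Krt75, a hair follicle keratin, was at 0.675 CPM in wild-type cells and 1.23 CPM in knockout cells (ratio 1.83, interval 1.20 to 2.79). Krt20, an intestinal keratin, was at 0.409 and 0.769 CPM (ratio 1.88, interval 1.10 to 3.28). Krt9, the keratin of palm and sole epidermis, was at 0.232 and 0.0192 CPM, a ratio of 0.0830 with a wide interval (0.00195 to 0.552). Krt14, the type I keratin of basal epidermis, was at 0.436 and 0.323 CPM with an interval that includes 1 (0.385 to 1.48). Krt5 was at 0.0354 and 0.172 CPM, with an interval from 1.005 to 46.2. Krt75, Krt20, Krt9, Krt14 and Krt5 were chosen after their values were seen.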
